A study of Mus musculus with 9 samples.

Results

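The 9 genes described here encode transcription factors that establish or maintain the identity of the gut epithelium. They are the caudal homeobox factors Cdx1 and Cdx2, the nuclear receptors Hnf4a and Hnf4g, the zinc finger factors Gata4 and Gata6, the Krüppel-like factors Klf4 and Klf5, and the SRY-box factor Sox9. The genes were chosen by symbol, although earlier results of these data were known at the time. All 9 were found among the 23955 rows of the count table.

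RNA-seq was performed on organoids, which are epithelial cultures grown from gut tissue in a supporting gel, in 3 groups of 3 samples. All samples came from APCmin/+ mice, which carry a mutated copy of the tumor suppressor gene Apc, so that no group here is wild type. MIN organoids were grown from the normal-looking gut epithelium beside the tumors, adenoma organoids from adenomatous polyps, and the sulindac group from such polyps with the NSAID sulindac added to the cultures. Every culture received Noggin, EGF, bFGF, B27 and R-spondin1, a protein that strengthens Wnt signaling. The gut segment, the age of the mice, the number of mice and the dose and duration of sulindac for the organoids were not given in the sources used here, and p-values measure the spread between the samples of a group, which may be partly technical.

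CDX factors direct the gut epithelium toward an intestinal rather than a gastric fate and switch on genes of the brush border and of mucus. HNF4 factors drive genes for fat absorption and the enterocyte surface, and GATA4 is known for keeping the upper small intestine distinct from the ileum. KLF5 is typical of dividing crypt cells, KLF4 of differentiated cells, and SOX9, a target of Wnt signaling, of stem cells and Paneth cells at the crypt base. APC holds Wnt signaling in check.

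The samples held 30881206 to 48412477 counts each. A gene with 3 counts lay between 0.0641 and 0.10 CPM (each sample's counts scaled to a common library total with TMM factors, which adjust for library size and composition), taken here as the floor of detection for counting error only. All 6 epithelial markers examined were present, with summed CPM between 5320 and 7791 in MIN, between 3213 and 4233 in adenoma and between 4508 and 5384 in sulindac samples. Summed markers of leukocytes, mesenchyme, endothelium or enteric nerve each stayed at or below 4.50 CPM in every sample, and the mesenchymal genes Col1a2, Col3a1 and Dcn had no count at all. In such bulk samples, fewer cells of a type and less RNA per cell cannot be told apart.

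All 9 factors were detected in MIN organoids, and their order by level was read per kb of exon, since longer genes collect more reads. Hnf4a was the highest of the 9 in MIN, at 242 ± 19.7 CPM per kb (SD, n = 3), above 98.7% of the 15229 genes with a length and more than 3 counts in a sample. Cdx2 followed with 115 ± 8.03 CPM per kb, then Cdx1 with 57.9 ± 6.64 and Hnf4g with 52.3 ± 6.61 CPM per kb. The sample ranges of Cdx1 and Hnf4g overlapped, whereas those of Hnf4a and Cdx2 were clear of each other and of the rest.

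Below these factors in MIN came Gata4 with 29.6 ± 1.27 CPM per kb and Klf5 with 19.4 ± 2.38 CPM per kb. Sox9 with 15.5 ± 1.13 and Klf4 with 14.7 ± 3.86 CPM per kb overlapped, and Gata6 was the lowest at 10.01 ± 0.249 CPM per kb. The order differed in adenoma, where Hnf4a with 56.9 ± 6.19 CPM per kb and Cdx2 with 53.3 ± 2.11 CPM per kb overlapped. Sox9 moved up to the third place with 41.4 ± 3.13 CPM per kb, and Cdx1, at 0.0489 ± 0.0292 CPM per kb, was last.

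In sulindac samples the leading factors lay close together. Hnf4a had 51.7 ± 6.43 CPM per kb, Cdx2 43.9 ± 9.97, Sox9 31.6 ± 2.89 and Klf4 28.7 ± 2.61 CPM per kb, and each overlapped with the next. Gata4, Klf5, Hnf4g, Gata6 and Cdx1 followed in this order, and among them only Hnf4g, at 2.96 ± 0.416, and Gata6, at 2.68 ± 0.291 CPM per kb, overlapped.

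**Figure D1:**
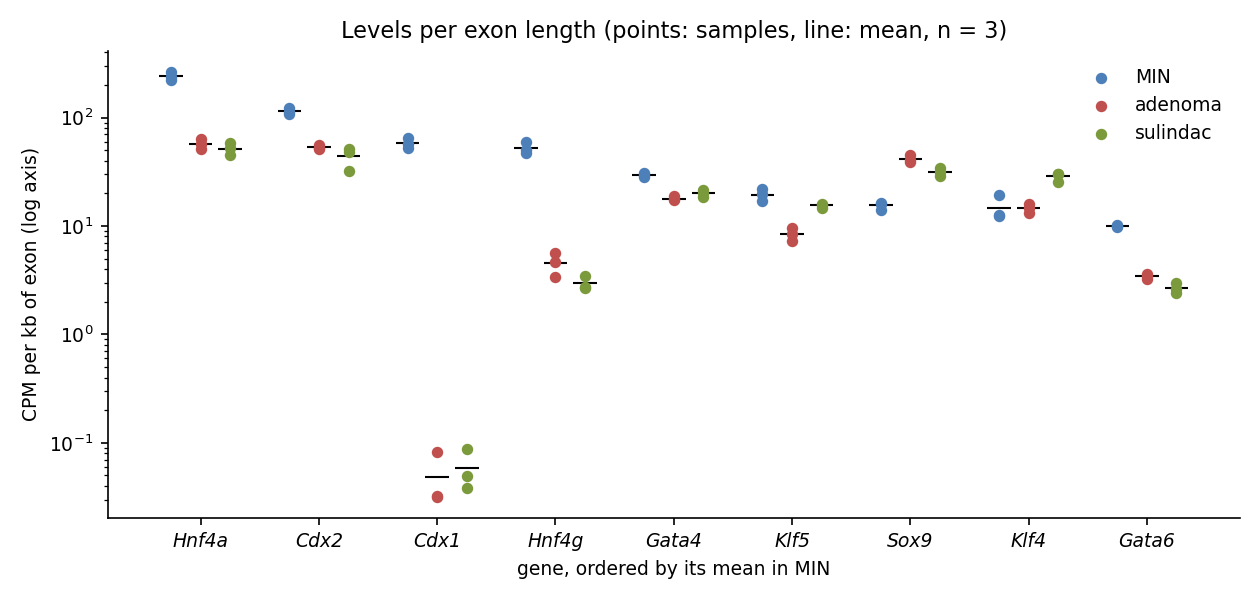
Levels of the 9 genes in CPM per kb of exon (vertical log axis) for each organoid sample, colored by group, with a line at each group mean of 3 samples. Genes stand in the order of their MIN mean, from Hnf4a at 242 to Gata6 at 10.01 CPM per kb, and the Cdx1 points of adenoma and sulindac samples lie far below all others.

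The comparison of adenoma with MIN organoids asked how the factors differed between the polyps and the epithelium beside them. In adenoma 7 of the 9 factors were lower, namely Cdx1, Cdx2, Hnf4a, Hnf4g, Gata4, Gata6 and Klf5, with edgeR's quasi-likelihood test and a threshold of 1% on the false discovery rate (FDR). Of all 13744 genes tested, 20.1% were lower in the same comparison. Cdx1 passed the filter on low counts only through MIN and could only be called lower. With 10 counts or more demanded in each sample, 6 factors were lower. Sox9 was the 1 factor that was higher, against 18.5% of all genes, and Klf4 was not called. The median log2 fold change of the 9 factors was -1.21, and that of all genes tested was -0.01.

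Sulindac-treated adenoma organoids were compared with untreated ones to ask what the drug changed. Of the 8 factors that could be tested, Klf4 and Klf5 were higher after treatment, which makes 2 calls, where 8.32% of all 12962 genes tested were higher. By edgeR 0 factors were lower, against 9.1% of all genes, with 3 (Hnf4g, Gata6 and Sox9) at an unadjusted p under 0.05, and DESeq2 also called 0. When TMM was replaced by library size alone, the share of higher genes among all those called moved from 47.8% to 23.3% and the median of all genes from -0.01 to -0.18. On that scale Gata6 (log2 fold change -0.52, adjusted p = 0.00985) and Sox9 (log2 fold change -0.55, adjusted p = 0.00767) also passed as lower.

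Against MIN, sulindac samples had 6 of the 9 factors lower, the same as adenoma except for Klf5, where 26.8% of the 13551 genes tested were lower. Cdx1 again passed the filter only through MIN, and 5 factors were lower with 10 counts or more demanded in each sample. Klf4 and Sox9 were higher, which makes 2, where 23% of all genes were, and 49.7% of all genes passed in either direction. This comparison shares its MIN samples with the first and its sulindac samples with the second, so it adds no independent evidence on either group.

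**Figure D2:**
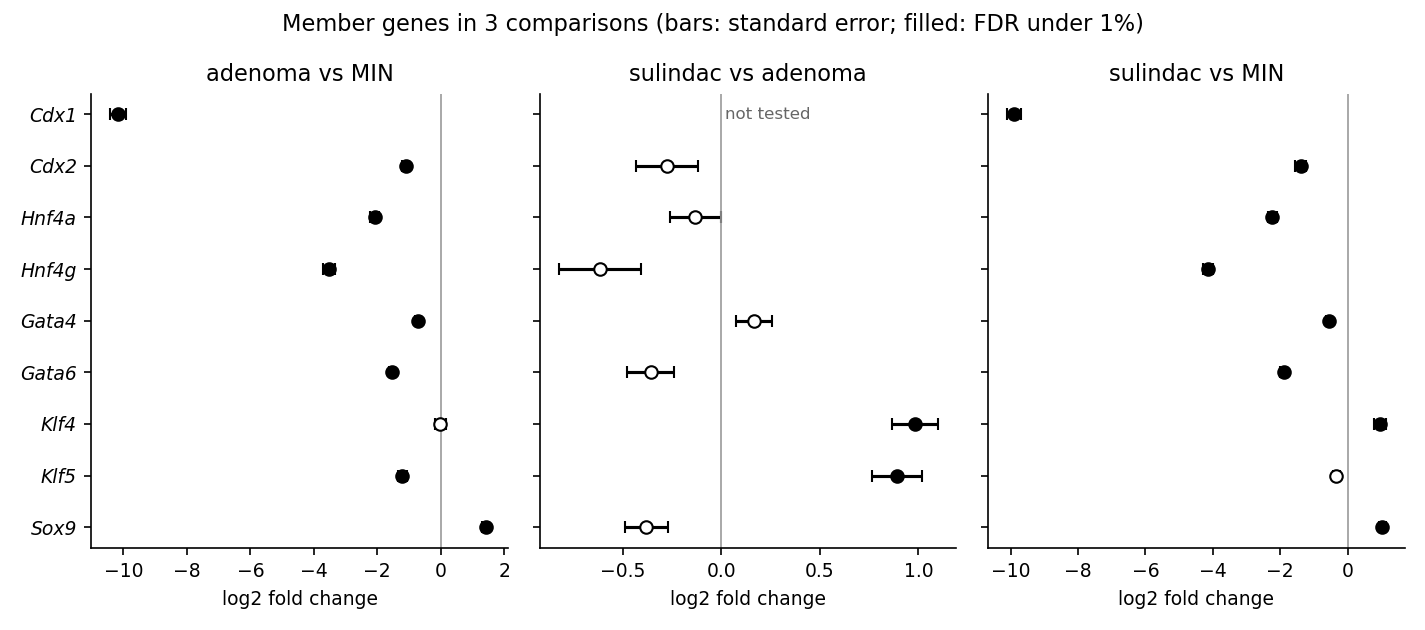
Log2 fold changes of the 9 genes in 3 comparisons (horizontal axes, on different scales), with bars for the standard error and filled points for genes under an FDR of 1%. Cdx1 stands apart at -10.16 and -9.90, and only Klf4 and Klf5 are filled between sulindac and adenoma samples.

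Cdx1, a homeobox factor confined to the intestine in the adult gut, was present in MIN organoids and almost absent from organoids of polyps. It had 3743, 5330 and 3627 counts in the 3 MIN samples, which correspond to 91.1, 114 and 98.8 CPM. Adenoma samples had 2, 2 and 5 counts, and sulindac samples 2, 5 and 3 counts. The 6 samples grown from polyps thus stood around the floor of 3 counts, far from the MIN range. Scaled to depth, the summed MIN count was 1200 times that of adenoma (95% counting interval 632 to 2625) and 989 times that of sulindac samples (538 to 2064).

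Cdx1 passed the filter on low counts only through the MIN samples. Its fitted log2 fold change was -10.16 (SE 0.25, adjusted p = 3.26e-08) in adenoma and -9.90 (SE 0.21, adjusted p = 9.25e-09) in sulindac samples, and at so few counts its size depends on the prior count of the tool. In adenoma it ranked 115 from the lowest of the 13744 log2 fold changes. Between sulindac and adenoma samples Cdx1 failed the filter on low counts. With 9 counts in adenoma and 10 in sulindac samples, the ratio of adenoma to sulindac was 0.824 (95% counting interval 0.296 to 2.26), so that a difference was not detectable at this depth.

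Cdx2, the homeobox factor that specifies intestinal over gastric epithelium, was reduced but remained well expressed. Its levels were 243, 256 and 279 CPM in MIN, 119, 126 and 117 CPM in adenoma, and 115, 109 and 73.4 CPM in sulindac samples. MIN samples were above all others, and sulindac replicate 3 was the lowest of the 9. The log2 fold change from MIN to adenoma was -1.10 (SE 0.10, adjusted p = 3.37e-05), or 2.15-fold lower, and that from MIN to sulindac was -1.39 (SE 0.16, adjusted p = 0.000107). Between adenoma and sulindac samples it was -0.28 (SE 0.16, adjusted p = 0.216), and although the ranges of the groups did not overlap, this missed the threshold.

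Hnf4a, a nuclear receptor that drives enterocyte and hepatocyte genes, was the most abundant factor and fell in adenoma. Counts of 1082, 1152 and 1271 CPM in MIN stood against 305, 274 and 245 CPM in adenoma and 280.1, 251 and 218 CPM in sulindac samples. The MIN values were well clear of the others, which overlapped each other. The log2 fold change was -2.09 (SE 0.14, adjusted p = 4.52e-06) in adenoma, or 4.24-fold lower, and -2.23 (SE 0.12, adjusted p = 1.18e-06) in sulindac samples, both against MIN. Sulindac and adenoma samples differed by -0.13 (SE 0.13, adjusted p = 0.466).

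Hnf4g, the paralog of Hnf4a that is restricted to fewer tissues and shares many of its binding sites in the gut, showed a steeper drop. It had 131, 157 and 124 CPM in MIN, 12.2, 14.8 and 8.82 CPM in adenoma, and 7.10, 9.05 and 7.21 CPM in sulindac samples. The adenoma and sulindac ranges overlapped narrowly, through adenoma replicate 3 and sulindac replicate 2. Its log2 fold change was -3.52 (SE 0.20, adjusted p = 2.01e-06), 11.5-fold lower, in adenoma and -4.15 (SE 0.14, adjusted p = 8.12e-08), 17.7-fold lower, in sulindac samples relative to MIN. From adenoma to sulindac it was -0.62 (SE 0.21, adjusted p = 0.0510) and missed the threshold, but without adenoma replicate 3 it was -0.80 and passed (adjusted p = 0.00575).

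The RefSeq promoter table for GRCm38.p6 holds 4 promoters of 3 of the factors, namely 1 of Cdx2, 2 of Hnf4a and 1 of Klf4. The bases before the start site are shown for Cdx2 and Hnf4a, 2 factors that were both lower in adenoma and sulindac than in MIN samples. Hnf4a is known to start from alternative promoters, and the counts, being summed per gene, do not separate their transcripts. Each run covers the 250 bases before the start, 5′ to 3′ on the strand of the gene. Capitals mark matches to the motifs searched, which were the CDX core TTTATNG, the HNF4 site CAAAGTCCA, the GATA site AGATAA and the TCF/LEF site CTTTGAT, on both strands of the full 300 bases.
Cdx2, chr5:147307250-147307499, minus strand: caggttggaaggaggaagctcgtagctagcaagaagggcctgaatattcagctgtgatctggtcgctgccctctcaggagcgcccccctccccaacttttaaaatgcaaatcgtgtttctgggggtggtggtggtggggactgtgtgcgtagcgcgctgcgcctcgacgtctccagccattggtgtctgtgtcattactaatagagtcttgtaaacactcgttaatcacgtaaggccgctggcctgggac
Hnf4a upstream promoter, chr2:163506607-163506856, plus strand: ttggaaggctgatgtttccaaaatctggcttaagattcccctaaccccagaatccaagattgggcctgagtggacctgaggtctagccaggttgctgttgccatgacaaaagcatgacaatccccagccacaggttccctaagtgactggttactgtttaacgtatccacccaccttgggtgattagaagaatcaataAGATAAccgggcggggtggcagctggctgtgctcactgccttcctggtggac
Hnf4a downstream promoter, chr2:163546905-163547154, plus strand: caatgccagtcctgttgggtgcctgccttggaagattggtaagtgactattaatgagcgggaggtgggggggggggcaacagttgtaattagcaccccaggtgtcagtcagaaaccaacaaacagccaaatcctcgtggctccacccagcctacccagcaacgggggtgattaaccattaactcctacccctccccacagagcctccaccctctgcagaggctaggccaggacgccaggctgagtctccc
The upstream Hnf4a promoter held 1 GATA site at -52 to -47 from the start, and the promoters of Cdx2 and Klf4 and the downstream one of Hnf4a held no match to these motifs. Matches of this length are common, with the GATA site in 11.2%, the CDX core in 10.9%, the TCF/LEF site in 3.73% and the longer HNF4 site in 0.475% of all 32851 promoters of the table.

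Gata4, the zinc finger factor of the duodenum and jejunum, showed the smallest of the changes called in adenoma. Levels were 110.4, 116 and 120.2 CPM in MIN, 73.3, 67.3 and 69.1 CPM in adenoma, and 78.3, 83.7 and 72.2 CPM in sulindac samples. Every MIN sample was above every other sample, and the adenoma and sulindac ranges overlapped. The log2 fold change was -0.72 (SE 0.10, adjusted p = 0.000282), 1.65-fold lower, in adenoma and -0.57 (SE 0.08, adjusted p = 0.000328) in sulindac samples against MIN. From adenoma to sulindac it was 0.17 (SE 0.09, adjusted p = 0.204), and with library size alone it turned to -0.0015.

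Gata6, a related factor found along the whole gut and in its crypts, fell further than Gata4. Its values of 64.7, 63.8 and 66.9 CPM in MIN were above the 21.2, 22.7 and 23.6 CPM in adenoma and the 19.5, 17.2 and 15.7 CPM in sulindac samples. The groups formed separate ranges, with sulindac samples the lowest. The log2 fold changes from MIN were -1.53 (SE 0.10, adjusted p = 4.52e-06), 2.89-fold lower, in adenoma and -1.90 (SE 0.10, adjusted p = 1.06e-06) in sulindac samples, and that from adenoma to sulindac was -0.36 (SE 0.12, adjusted p = 0.0470), which missed the threshold of 1%. The annotated antisense gene 1010001N08Rik overlaps 93 exon bases of Gata6, had 9 to 406 counts, and the strand setting of the counting was not given in the sources used here.

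Klf4, a factor of differentiated and goblet cells that restrains division, did not separate adenoma from MIN but rose with sulindac. It had 37.7, 38.5 and 58.5 CPM in MIN, 48.5, 40.4 and 44.8 CPM in adenoma, and 91.8, 78.2 and 92.1 CPM in sulindac samples. MIN replicate 3 was above the adenoma samples while the other MIN samples were below them, so these groups overlapped, and all sulindac samples were higher. The log2 fold change of Klf4 was -0.01 (SE 0.18, adjusted p = 0.973) from MIN to adenoma, a sign that turned with library size alone and with the replicate block. From adenoma to sulindac it was 0.98 (SE 0.12, adjusted p = 0.000689), or 1.97-fold higher, and from MIN to sulindac 0.96 (SE 0.17, adjusted p = 0.00144).

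Klf5, a factor of proliferating crypt cells, was lower in adenoma and higher again after sulindac. Levels of 88.4, 102 and 113 CPM in MIN fell to 43.9, 49.4 and 37.4 CPM in adenoma, and sulindac samples had 81.8, 76.6 and 83.0 CPM. Sulindac samples lay between the other groups without overlap, close to MIN replicate 1. The log2 fold change was -1.21 (SE 0.14, adjusted p = 0.000126), 2.32-fold lower, from MIN to adenoma and 0.89 (SE 0.12, adjusted p = 0.00140), 1.85-fold higher, from adenoma to sulindac. Sulindac samples differed from MIN by -0.33 (SE 0.10, adjusted p = 0.0181), which missed the threshold, but without MIN replicate 1 the value was -0.42 and passed (adjusted p = 0.00590).

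Sox9, a factor of crypt base and Paneth cells, was the factor that rose in adenoma. It had 66.3, 67.2 and 58.7 CPM in MIN, 168, 186 and 160.5 CPM in adenoma, and 143, 130.0 and 119 CPM in sulindac samples. The 3 groups did not overlap, with adenoma the highest and sulindac in between. The log2 fold change was 1.42 (SE 0.11, adjusted p = 1.10e-05), 2.68-fold higher, in adenoma and 1.03 (SE 0.10, adjusted p = 3.15e-05), 2.04-fold higher, in sulindac samples against MIN. From adenoma to sulindac it was -0.38 (SE 0.11, adjusted p = 0.0270) and was not called at 1%.

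The paralogs of a pair changed by different amounts, and after this was seen their balance within each sample was compared. This was done as a log2 ratio of CPM + 0.5, which hardly depends on the scaling between libraries. With 3 samples against 3, the exact permutation test (two-sided) cannot go below p = 0.1, and this smallest value adjusts to 0.133 over the 12 comparisons of 4 pairs. No difference could therefore pass a threshold of 5%, and the values below are given as a description. Groups without overlap are the same as those at the smallest p, so the overlap adds no further test.

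Cdx1 made up 33.5% ± 2.66 (SD, n = 3) of the summed CDX level per kb in MIN, 0.0926% ± 0.0580 in adenoma and 0.136% ± 0.0551 in sulindac samples. Cdx1 lay under the pseudocount of 0.5 CPM in adenoma, so the size of the fall in its log2 ratio to Cdx2 follows that choice. From MIN to adenoma this ratio changed by -6.34 with 0.5 CPM, -8.02 with 0.1 CPM and -5.46 with 1 CPM, without overlap of the groups (exact permutation p = 0.1 for each). Hnf4g accounted for 17.8% of the summed HNF4 level per kb in MIN, with a range of 15.2% to 20.04% over the samples. Its share was 7.36% (6.19% to 9.02%) in adenoma and 5.46% (4.45% to 6.22%) in sulindac samples. The Hnf4a to Hnf4g log2 ratio was 3.09 ± 0.24, 4.49 ± 0.29 and 4.92 ± 0.26 (SD, n = 3) in MIN, adenoma and sulindac samples, and the last 2 groups overlapped (exact permutation p = 0.2).

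The summed HNF4 level itself was 294 ± 18.5 CPM per kb in MIN, 61.5 ± 6.90 in adenoma and 54.6 ± 6.43 in sulindac samples. Gata6 held 25.3% of the summed Gata4 and Gata6 level per kb in MIN, 16.2% in adenoma and 11.8% in sulindac samples. For this pair all 3 groups were apart, with log2 ratios of Gata4 to Gata6 of 0.82 ± 0.05, 1.61 ± 0.13 and 2.13 ± 0.14. The step from adenoma to sulindac was 0.52 and that from MIN to adenoma 0.79 (exact permutation p = 0.1 for each).

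Klf4 formed 42.7% ± 3.87 of the summed Klf4 and Klf5 level per kb in MIN and 63.6% ± 4.69 in adenoma. Sulindac samples had 64.9% ± 1.195, close to adenoma, although the summed level of the pair went from 23.0 ± 1.24 to 44.1 ± 3.25 CPM per kb. The log2 ratio of Klf4 to Klf5 thus differed by 1.22 between adenoma and MIN (exact permutation p = 0.1) and by 0.08 between sulindac and adenoma (exact permutation p = 0.8).

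**Figure D3:**
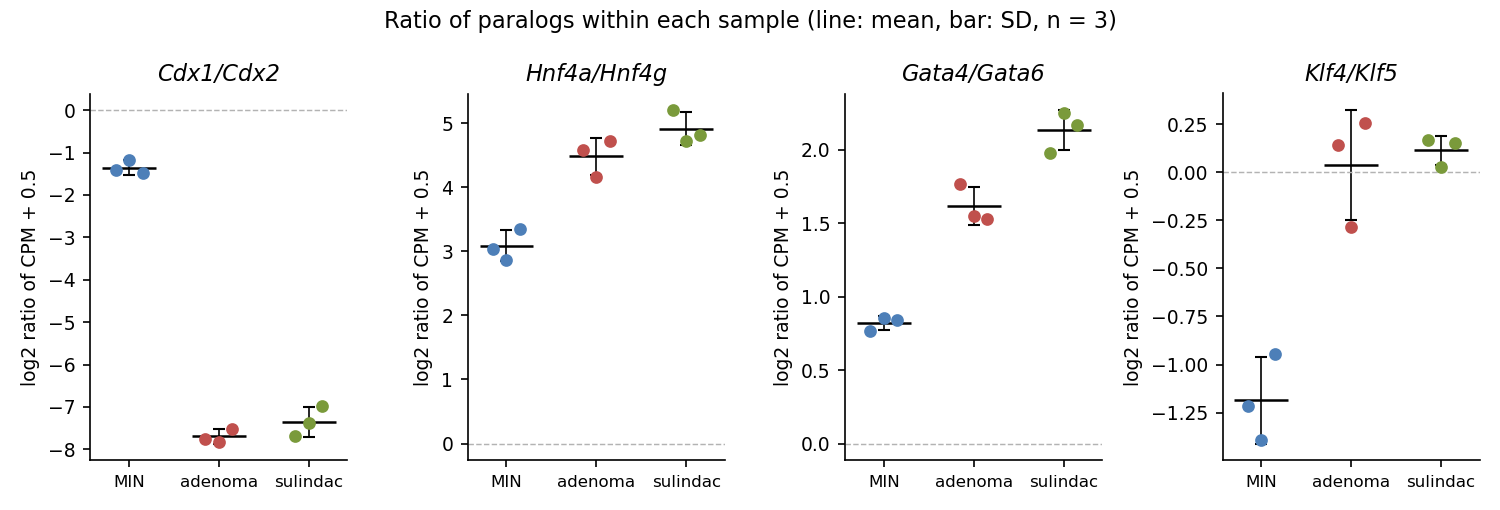
Log2 ratio of CPM + 0.5 between the paralogs of each pair in every sample (points), with the group mean (line) and SD (bar) of 3 samples and a dashed line where both are equal. MIN differs from both other groups without overlap in all 4 panels, and sulindac differs from adenoma without overlap for Gata4/Gata6 alone. Other gene pairs were not examined, and 38.7% of all genes were called between adenoma and MIN and 49.7% between sulindac and MIN.

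The genes whose levels ran most alike with each factor were sought among the 12622 genes tested in all comparisons, by Pearson's r of log2(CPM + 0.5) over the 9 samples. Since these samples form 3 groups, r mainly follows the differences between groups, and it is given as a description. The closest to Cdx1 was Ccl25, a chemokine of the small intestine, at r = 0.999, followed by AI747448 at the same r. Pde9a (r = 0.996) was nearest to Cdx2, and Gpr128 and E130012A19Rik (r = 0.997 and 0.996) to Hnf4a. Hnf4g ran with Kit (r = 0.998) and Alg6 (r = 0.998).

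For Gata4 the nearest genes were Nqo2 (r = 0.996) and Ada (r = 0.990), and for Gata6 Spink4 (r = 0.997) and Lypd8 (r = 0.995). Klf4 was closest to Arrdc4 (r = 0.985) and Trim29 (r = 0.981), and Klf5 to Reep6 (r = 0.987) and Aldh1l2 (r = 0.983). Ephb6 (r = 0.992) and Frmpd1 (r = 0.991) ran with Sox9. No factor of the 9 was among the 2 nearest genes of another, but Cdx1, not tested between sulindac and adenoma, was not among the genes searched. Between factors, r went from -0.967 (Gata4 and Sox9) to 0.989 (Cdx1 and Hnf4a).

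Of 18 partner transcription factors of the gut epithelium listed, 17 could be tested between adenoma and MIN, and Cdx4 had no count in any sample. In adenoma 6 were higher and 7 were lower, against 18.5% and 20.1% of all genes, with a median log2 fold change of -0.28, and 3 of the higher ones were left by the test against a minimum change of 1.5-fold. Pdx1, a factor of the duodenum and pancreas, rose from 0.303 ± 0.101 to 11.6 ± 2.18 CPM (log2 fold change 5.26, adjusted p = 2.14e-06), ahead of Prdm1, Maf and Foxa3 with log2 fold changes of 2.67, 2.38 and 0.89. Creb3l3, a factor of enterocyte lipid metabolism, fell from 58.0 ± 24.5 to 0.208 ± 0.0342 CPM (log2 fold change -8.10, adjusted p = 2.24e-06), ahead of Nr5a2, Isx and Onecut2 with -4.69, -2.21 and -1.49. Onecut2 missed the threshold without MIN replicate 3, adenoma replicate 1 or adenoma replicate 3 (adjusted p = 0.0101, 0.0144 and 0.0159), and Creb3l3, with under 10 counts in every adenoma sample, passed the filter only through MIN. After sulindac, Isx and Tcf7l2 were higher and Foxa3 and Ehf lower than in untreated adenoma, out of 16 tested, against 8.32% of all genes higher and 9.1% lower. With library size alone none of these partner factors was higher, as Isx (adjusted p = 0.0104) and Tcf7l2 (adjusted p = 0.0374) missed the threshold, and 3 were lower. Isx, a homeobox gene downstream of CDX factors, went from 36.0 ± 15.2 to 92.4 ± 6.22 CPM (log2 fold change 1.36, adjusted p = 0.00507).

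The other family members gave a mixed picture. Among 12 other KLF genes tested between adenoma and MIN, Klf16 (log2 fold change 0.47) was higher and Klf10 (log2 fold change -1.1995) lower, against 18.5% and 20.1% of all genes. Klf10 missed the threshold without adenoma replicate 3 (adjusted p = 0.01005). From adenoma to sulindac, 3 of 12 were higher, namely Klf7, Klf6 and Klf9 with log2 fold changes of 1.496, 1.36 and 0.67, against 8.32% of all genes. By edgeR 0 were lower, against 9.1% of all genes, with 1 at an unadjusted p under 0.05 and 1 by DESeq2. With library size alone 1 was higher and 1 lower, since Klf7 (adjusted p = 0.0118) and Klf9 (adjusted p = 0.0314) missed the threshold. Of 6 other SOX genes tested in adenoma, Sox21, Sox4 and Sox13 were higher and Sox12 lower, against 18.5% and 20.1% of all genes. Sox21 rose from 2.92 ± 0.614 to 85.0 ± 2.68 CPM (log2 fold change 4.86, adjusted p = 1.52e-07). With same-numbered adenoma and MIN samples paired in edgeR, Klf16 (adjusted p = 0.0129) and Sox13 (adjusted p = 0.0102) missed the threshold. Sox4 and Sox13 were lower after sulindac (log2 fold changes -1.28 and -0.52), of 6 tested, against 9.1% of all genes. Gata5, the other GATA gene with a clear level, was at 36.9 ± 5.42 CPM in MIN, 43.4 ± 6.41 in adenoma and 38.7 ± 5.58 in sulindac samples, and was not called. Klf4 and Klf5 passed between sulindac and adenoma whichever sample was left out, but 19 of the 27 list genes called there lost their call without at least 1 sample, among them Isx, Tcf7l2, Foxa3, Ehf, Klf7, Klf9, Sox4 and Sox13, while none changed direction.

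Genes known as targets of these factors were read from short lists that share some members, such as Isx, Lct, Fabp1 and Apoa4. All 9 CDX targets listed were lower in adenoma than in MIN, with a median log2 fold change of -2.21, against 20.1% of all genes. Sis, the brush border sucrase-isomaltase, went from 1603 ± 66.3 to 2.54 ± 0.407 CPM (log2 fold change -9.29, adjusted p = 1.65e-08). Of the 12 HNF4 targets all were lower as well (median -6.78), led by Fabp1, a fatty acid binding protein of enterocytes, which had between 8581 and 33191 counts in each MIN sample but 1 to 7 in adenoma. HNF4 targets such as Fabp1, Apoa4 and Apoc3 and the CDX target Lct had under 10 counts in every adenoma sample. They passed the filter on low counts only through MIN and could only be called lower. With 10 counts or more demanded in each sample, 7 HNF4 targets and 8 CDX targets were lower in adenoma, and 7 and 5 in sulindac samples against MIN. Against MIN, sulindac samples had 7 of the 9 CDX targets and all 12 HNF4 targets lower, against 26.8% of all genes.

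After sulindac, the CDX targets Isx, Heph and Dsc2 were higher than in untreated adenoma and Sis lower, of 8 tested. In this comparison 8.32% of all genes were higher and 9.1% lower. With library size alone 1 CDX target was higher, as Isx and Dsc2 (adjusted p = 0.0221) missed the threshold. Heph, an iron oxidase of enterocytes, rose from 28.2 ± 7.79 to 92.3 ± 10.1 CPM (log2 fold change 1.72, adjusted p = 0.000564). Of 7 HNF4 targets tested, the microvillus protocadherins Cdhr2 and Cdhr5 were higher and Mttp, needed to load lipoproteins, was lower (log2 fold changes 0.86, 0.60 and -1.26), and Cdhr5 was not called with library size alone (adjusted p = 0.0276). Cdx2, Hnf4a and Hnf4g did not pass in this comparison, although Hnf4g passed as lower without adenoma replicate 3 (adjusted p = 0.00575). Cdx1 was at the floor, and a link between the factors and these targets was not tested.

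Of the 4 jejunal genes known to depend on GATA4, Lct, Fabp1 and Apoa4 were lower in adenoma, against 20.1% of all genes. None of these had 10 counts in any adenoma sample, so that they passed the filter only through MIN. Cubn, the receptor cubilin, rose from 4.23 ± 2.2 to 95.5 ± 28.2 CPM (log2 fold change 4.50, adjusted p = 2.31e-05). Sulindac samples had 22.8 ± 6.02 CPM of Cubn, lower than adenoma (log2 fold change -2.07, adjusted p = 0.000742). The 4 bile acid genes of the ileum summed to 25.7 to 29.8 CPM in MIN and to at most 0.112 CPM in adenoma samples. All 4 were at or under the floor in adenoma and passed the filter only through MIN, which left them no call but a lower one, and 0 of them could be called with 10 counts or more demanded in each sample. Slc51a, a bile acid exporter subunit, had 522 to 780 counts in MIN and at most 1 in adenoma samples.

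Of 8 genes known to respond to KLF4 or KLF5, Ccnd1 rose in adenoma (by 1.31 on the log2 scale, adjusted p = 4.30e-05) and 4 were lower, against 18.5% and 20.1% of all genes. Among the lower ones was the enterocyte phosphatase gene Alpi, with at least 3200 counts in each MIN sample and at most 3 in adenoma. Alpi passed the filter only through MIN and could only be called lower, and 3 were lower with 10 counts or more demanded in each sample. Between sulindac and adenoma, edgeR called 0 of 7 tested, where 17.4% of all genes were called in either direction. Of these 7 genes, 3 were at an unadjusted p under 0.05, and DESeq2 called 0. Of 10 Wnt targets other than Sox9, 9 were higher in adenoma, against 18.5% of all genes, with a median log2 fold change of 1.89. Ephb3 missed the threshold with the pairing (adjusted p = 0.0190), and a part of Wnt signaling in the change of Sox9 was not tested. Notum, a secreted Wnt inhibitor, went from 0.7003 ± 0.103 to 354 ± 68.4 CPM (log2 fold change 8.97, adjusted p = 3.87e-08), whereas the stem cell receptor Lgr5 was lower (log2 fold change -1.10, adjusted p = 0.00149). Of the 10 Wnt targets, Notum, Sp5 and Ephb3 were lower after sulindac, against 9.1% of all genes, and Sp5 changed most, by -1.42 on the log2 scale (adjusted p = 0.00131).

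Markers of other epithelia and of the epithelium in general also differed between the groups, in both directions, and their part in these results was not tested. Of 14 stomach markers, 7 could be tested in adenoma, of which 3 were higher and 3 lower, against 18.5% and 20.1% of all genes. Of those called, only Ctse, which was higher, had at least 10 counts in every sample. Tff2 had at most 2 counts in MIN and 44 to 174 in adenoma, Anxa10 had between 751 and 1102 counts in MIN and at most 4 in adenoma, and the summed stomach markers lay between 22.5 and 34.8 CPM in MIN samples and between 6.32 and 16.2 CPM in adenoma samples. Anxa10 alone made up 21.9 ± 7.25 CPM of the MIN sum, whereas Tff2, Muc6 and Ctse rose. The gastric factor Sox2 had at most 1 count in any MIN sample and none in the others. After sulindac, Muc6 and Tff2 were lower, of 3 tested, against 9.1% of all genes. Muc6 had under 10 counts in every sulindac sample, so it passed the filter only through adenoma and could only be called lower. With 10 counts or more demanded in each sample 0 were lower, and likewise 0 against a minimum change of 1.5-fold.

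Of the colon markers listed, Slc26a3, a chloride exchanger, was lower in adenoma and had between 671 and 1240 counts in the MIN samples and none in adenoma. It passed the filter only through MIN and could only be called lower. The sum of colon markers lay between 32.3 and 45.2 CPM in MIN and between 4.97 and 7.67 CPM in adenoma. Among squamous epithelium markers, Krt4 had 1.30 ± 0.732 CPM in MIN, 35.6 ± 6.29 in adenoma and 89.4 ± 4.68 in sulindac samples and rose in each comparison. Ivl was also higher in adenoma (of 2 tested, against 18.5% of all genes) and Krt5 after sulindac (of 4 tested, against 8.32%). Both calls were lost without at least 1 sample. Against MIN, Krt5 and Krt14 were also higher in sulindac samples (of 4 tested, against 23%). Both had under 10 counts in every MIN sample and could only be called higher. None of these markers was called lower, while Krt13 had no count in MIN and Trp63 none in sulindac samples. The epithelial markers Vil1, Krt19, Krt8 and Cdh1 were 4 of 6 that were lower in adenoma, against 20.1% of all genes, with Vil1 changing most (log2 fold change -1.43, adjusted p = 4.25e-05). Vil1 and Krt8 were higher after sulindac, against 8.32% of all genes. With library size alone neither passed (adjusted p = 0.0160 and 0.0152), and 1 epithelial marker was lower.

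**Figure D4:**
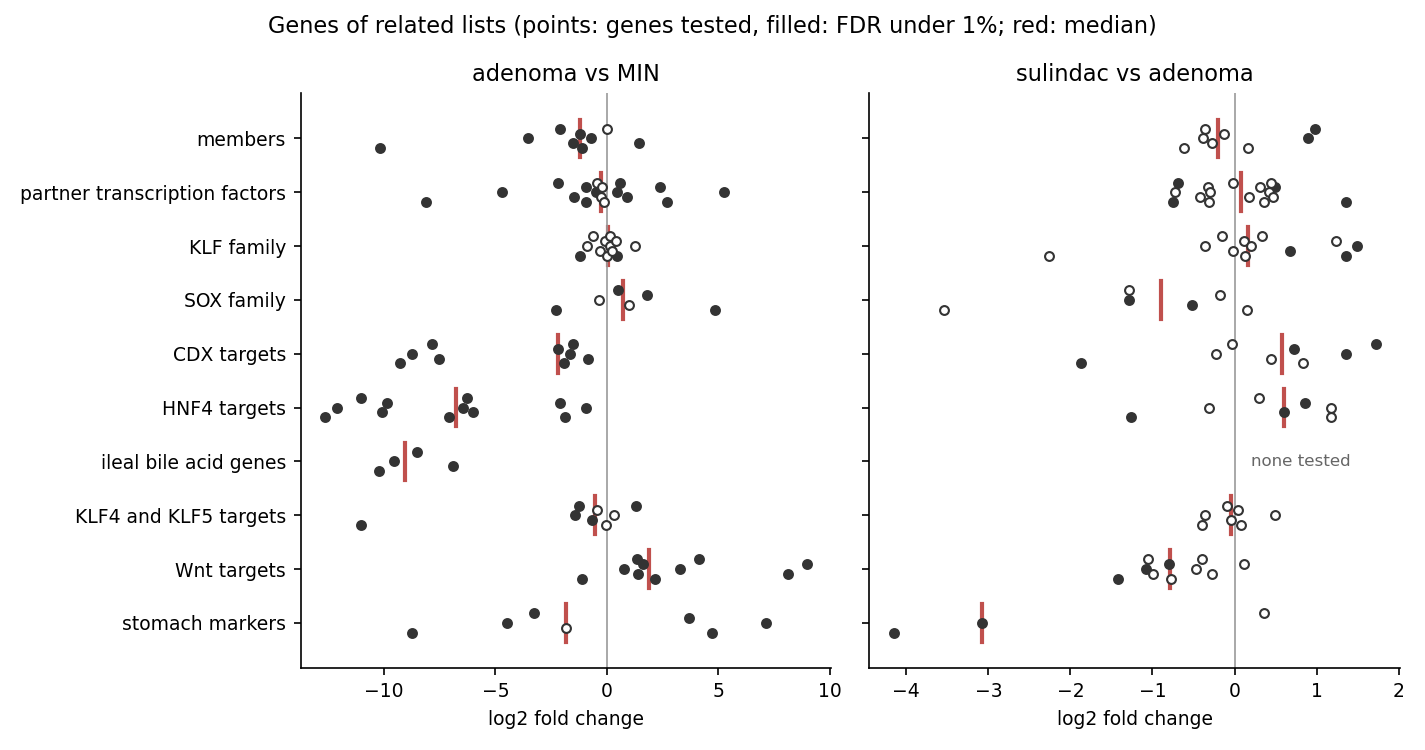
Log2 fold changes (horizontal axes, on different scales) of the 9 genes and of genes in related lists for adenoma against MIN and sulindac against adenoma, with a point per gene tested, filled under an FDR of 1%, and a red line at the median. CDX and HNF4 targets lie left of 0 in adenoma, with medians of -2.21 and -6.78, and Wnt targets mostly right, with a median of 1.89.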

How the data were processed

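RNA-seq data were 1 table of raw counts per gene symbol for 9 mouse organoid samples. The authors deposited these counts without normalization. The submitters' processing notes name Bowtie2 2.2.4, RSEM and the mouse build mm9. Their roles and settings, the annotation and the strand setting were not given in the sources used here, so that the counting may have split reads of similar genes in unknown ways. MIN replicate 1 had separate runs that summed to its total in all 23955 rows and differed little beyond counting error (mean chi-square of a gene 1.19, where replicates of a group gave 18.6 to 81.7), and the total was used as 1 sample. Symbols turned into dates were in 27 rows, none of them named here.

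Counts were compared by the quasi-likelihood test of edgeR 4.0.16 (R 4.3.3, robust glmQLFit) after its filterByExpr step and TMM scaling, with only the 2 groups compared in each fit and Benjamini-Hochberg adjustment over all genes tested at an FDR of 1%. CPM used TMM factors over all 9 samples. SE was obtained as the size of the log2 fold change over the root of the F statistic. Exon lengths and sequence sharing were taken from GENCODE M21. Of 50-base stretches, none in Cdx1, Cdx2, Hnf4a, Hnf4g, Gata4 and Sox9 were shared with other genes, against 0.682% in Gata6, 0.263% in Klf4 and 0.0777% in Klf5. Promoters are from RefSeq (GRCm38.p6) and were not placed on the build of the counts.

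The 9 genes, the lists and the tests were chosen with earlier results of these data known. Named from each list was the called gene with the largest change in each direction per comparison (up to 4 partner factors per direction), with the most abundant gene of a marker list where its level matters, and the 2 genes most correlated with each factor. Other genes of the lists were named after their values were seen. Some genes that this rule takes in are not reported here.

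Same-numbered MIN and adenoma samples, whose numbers come from the sample titles, deviated together from their group means (correlations across genes of 0.141, 0.129 and 0.211). Those with different numbers gave -0.168 to 0.0839, so that pairing by number is possible but not established. The main tests were unpaired, and the block with replicate number changed no call of the 9 factors. Alternatives were other normalizations (RLE, library size alone), no filter or at least 10 counts in every sample, all 9 samples in one fit, the replicate block, each sample left out, DESeq2 1.42.0, a test against a minimum change of 1.5-fold, a threshold of 5% on the FDR, and pseudocounts of 0.1 and 1 CPM for the ratios. On counts simulated for adenoma against MIN (13592 genes), 61 of 108 genes changed by 1 on the log2 scale and 85 of 92 changed by 2 were recovered, with 4 false calls. No other genes were changed there, whereas 38.7% of all genes were called in the data, so this recovery need not hold for the data.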

Additional observations from a re-analysis of the deposited data

How the results depend on the processing

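Under the alternatives tried, the 7 factors lower and the 1 higher in adenoma than in MIN were counted again in every setting except 2. The test against a minimum change of 1.5-fold left 6 lower, since Gata4 (adjusted p = 0.0930) missed the threshold, and demanding 10 counts or more in each sample left 6, since it removed Cdx1. Klf4 there was not called and had either sign, with 0.13 for library size alone, 0.018 with the replicate block, and -0.13 to 0.22 with each sample left out (0.22 without MIN replicate 3, 0.06 without adenoma replicate 2). Between sulindac and adenoma the factors called higher went from 2 to 0 with the minimum change of 1.5-fold (Klf4 adjusted p = 0.0166, Klf5 adjusted p = 0.0531), and those called lower from 0 to 2 with library size alone or an FDR of 5% (Gata6 and Sox9) and to between 0 and 1 with each sample left out (Hnf4g without adenoma replicate 3). With library size alone Gata4 turned to -0.0015. In sulindac against MIN the minimum change left 1 factor higher (Sox9) and took Gata4 (adjusted p = 0.672) from the lower ones, and Klf5 passed as lower with DESeq2 (adjusted p = 0.00943).

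Over all genes, the minimum change of 1.5-fold left 1513 higher and 1723 lower in adenoma against MIN, 216 and 323 in sulindac against adenoma, and 1465 and 2031 in sulindac against MIN. Counts between sulindac and adenoma moved most, from 1078 higher and 1179 lower to 603 and 1983 with library size alone, 2034 and 2374 at an FDR of 5%, 1778 higher with DESeq2, and 423 to 1403 higher and 386 to 1488 lower with each sample left out, lowest without sulindac replicate 3. The cause of these moves was not tested, except that a stricter or looser threshold calls fewer or more genes by construction.

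Same-numbered samples of sulindac and adenoma (0.255, 0.208 and -0.0821) or sulindac and MIN (-0.0337, 0.441 and 0.289) did not all deviate together, so there too the numbers do not establish pairs. With the replicate block 872 genes were higher and 1061 lower in sulindac against adenoma, and no call of the 9 factors changed in any comparison. The paralog ratios with same-numbered samples paired gave p = 0.25 at the smallest (exact sign-flip permutation), and the Klf4/Klf5 difference between sulindac and adenoma ranged from -0.083 to 0.19 with each sample left out, reversing without adenoma replicate 2. Of the list genes called, 12 of 76 in adenoma against MIN, 19 of 27 in sulindac against adenoma and 10 of 73 in sulindac against MIN lost their call without at least 1 sample, and none turned. In adenoma against MIN these were Birc5, Ehf, Ephb3, Esrra, Foxa1, Ivl, Klf10, Klf16, Muc6, Onecut2, Pecam1 and Sox13. Those named and lost between sulindac and adenoma also include Sis, Dsc2, Cdhr5, Mttp, Tff2, Muc6, Vil1, Krt8 and Krt5, and with the replicate block Klf9, Sox13, Tcf7l2 and Cdhr5 were lost there. Depth limited Cdx1, with 2 to 5 counts in each sample from polyps.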
